A study of Mus musculus with 6 samples.

Results

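The 50 genes described here encode proteins that copy DNA in S phase or drive chromosome segregation in mitosis. They were chosen by symbol from the 28584 gene symbols measured, and were divided by known role into 25 S-phase members and 25 mitotic members. All 50 were found, and all 50 passed the filter of 1 TPM or more in 2 libraries or more, as did 18556 genes in total. TPM, a level corrected for transcript length and scaled to the same sum in each library, allows genes to be compared.

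Before S phase, the origin recognition complex with Cdc6 and Cdt1 loads the ring of Mcm2 to Mcm7, the core of the replicative helicase, onto DNA. Mcm10, Cdc45 and the GINS proteins then turn the ring into an active helicase, DNA polymerases follow it on the sliding clamp Pcna, and ribonucleotide reductase and thymidylate synthase supply nucleotides. In mitosis, Cdk1 with cyclin B starts chromosome condensation and spindle assembly, Aurora and Polo kinases act on spindle and kinetochore, and the checkpoint proteins hold the anaphase-promoting complex until chromosomes are attached. Many S-phase genes are targets of E2F factors, and many mitotic genes carry a promoter element called CHR that the DREAM, B-Myb and FoxM1 complexes use. Mouse embryonic stem cells (mESCs) are known for rapid division with a short G1 phase.

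The study asked whether oncostatin M (OSM), a cytokine that shares the receptor subunit gp130 with leukemia inhibitory factor (LIF), can take the place of LIF in mESC culture. A single mESC line from a C57BL/6 × 129S6 blastocyst was kept for 5 passages on embryonic fibroblast feeders (MEF) inactivated with mitomycin C, and was then moved to serum-containing basic medium for 10 passages (P10). The medium held 1000 U/mL LIF for LIF-ESCs, OSM without LIF for OSM-ESCs, and neither cytokine for -LIF-ESCs. In the values below, with LIF stands for LIF-ESCs and with OSM for OSM-ESCs. Polyadenylated RNA was sequenced from 2 libraries a group, which the study calls biological replicates, and the labels do not say whether they came from separate cultures, so the p-values measure the spread between these libraries only.

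Whole reads recovered from the TPM came to between 20712976 and 28994419 a library, and from 474 to 30436 for a member in a library. Differences were fitted with limma to log2(TPM + 1), and a gene was called higher or lower at a Benjamini-Hochberg adjusted p under 0.05 over all genes tested. With 2 libraries a group, the smallest two-sided p of an exact permutation test is 0.333, and every p therefore rests on the model. Against -LIF-ESCs, the median of all genes tested was 0.165 on the log2 scale with LIF and 0.182 with OSM, and 0.004 and 0.009 once a median-ratio rescaling was applied, so changes against -LIF-ESCs are given also after rescaling. Every fold change below is of TPM + 1, which understates changes of low genes. The 10 ESC markers were detected in every library and summed to 5271 to 5279 TPM in -LIF-ESCs, 7428 to 7462 with LIF and 6871 to 6914 with OSM, and in each of these 8 were called higher, 1 lower (Nanog) and 1, Dppa5a, neither. Nanog had a log2 fold change of -0.58 with LIF and -0.73 with OSM, or -0.77 and -0.93 rescaled, and Dppa5a had -0.13 and -0.22 rescaled. After rescaling, 8 of the 10 were called higher and 2 lower with LIF, and 7 higher and 2 lower with OSM. Of all genes tested, 42.2% were called higher and 25.9% lower with LIF, and 42.9% and 25.4% with OSM. Rescaled, these shares were 33.9% and 33.5%, and 33.9% and 33.4%. The 14 fibroblast markers summed to 401.4 to 412.5, 613.5 to 627.8 and 821.1 to 843.2 TPM, and 12 of the 14 rose and 2 (Sparc and Col5a1) fell with either cytokine. Sparc alone stood at 318 and 314.4 TPM in -LIF-ESCs and made up most of the sum there. The median log2 fold change of the 14 was 2.44 with LIF and 2.90 with OSM, or 2.29 and 2.74 rescaled. In each comparison 11 were at least 2-fold higher, where 13.3% (LIF) and 14.2% (OSM) of all genes were. None of the 14 was at 0 in any library, although Lox was at 0.0734 and 0.0894 TPM and Dcn at 0.0757 and 0.0368 TPM in -LIF-ESCs. Their part in the results was not tested. In bulk RNA, fewer cells of a type and less RNA per cell cannot be told apart, which for these genes includes the share of cells in S phase or mitosis.

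Promoters of 39 members, 20 S-phase and 19 mitotic, were found in RefSeq (GRCm38.p6), each as 250 bases before and 50 after the annotated start. An E2F motif (TTTCCCGC, TTTCGCGC, TTTGCCGC or TTTGGCGC on either strand) was found in 9 of the 20 S-phase promoters (45%) and in 2 of the 19 mitotic ones (10.5%), against 2.6% of 27025 genes and 4.54% of the genes tested. A CHR motif (TTTGAA or TTCGAA on either strand) was found in 13 of the 19 mitotic promoters (68.4%) and in 4 of the 20 S-phase ones (20%), against 21.7% of all genes and 16.4% of the genes tested. The CCAAT box, searched as these 5 letters on either strand, was in 15 S-phase promoters (75%) and 16 mitotic ones (84.2%), against 41.1% and 43%. Each set of genes below shares its motif, and its members differed in their change against -LIF-ESCs. The S-phase windows run from 150 bases before to 20 after the start, 5′ to 3′ on the gene's strand, with E2F motifs in capitals.
Pola1 (chrX:93632136-93632305, minus strand): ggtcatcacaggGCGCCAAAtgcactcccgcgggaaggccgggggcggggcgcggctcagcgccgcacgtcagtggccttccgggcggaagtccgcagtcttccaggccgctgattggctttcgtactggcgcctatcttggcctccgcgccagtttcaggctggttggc
Orc1 (chr4:108579304-108579473, plus strand): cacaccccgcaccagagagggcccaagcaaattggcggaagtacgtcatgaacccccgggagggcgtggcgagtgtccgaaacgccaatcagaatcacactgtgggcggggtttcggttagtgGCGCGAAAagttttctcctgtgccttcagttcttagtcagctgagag
Mcm6 (chr1:128359686-128359855, minus strand): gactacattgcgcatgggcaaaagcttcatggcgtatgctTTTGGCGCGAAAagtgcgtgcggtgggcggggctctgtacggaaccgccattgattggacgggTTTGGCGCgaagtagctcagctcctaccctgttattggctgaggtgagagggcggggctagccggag
Cdc6 (chr11:98908001-98908170, plus strand): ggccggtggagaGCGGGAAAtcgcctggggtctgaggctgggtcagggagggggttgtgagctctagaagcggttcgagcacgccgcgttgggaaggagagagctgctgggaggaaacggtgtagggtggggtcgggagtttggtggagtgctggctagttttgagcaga

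The first run of capitals in Mcm6 holds 2 overlapping motifs, so that promoter has 3 in all. Pola1 and Orc1 rose with either cytokine, Orc1 only before rescaling, and Mcm6 and Cdc6 fell. Among the 9 S-phase members with the motif, 3 rose and 4 fell in LIF-ESCs (median log2 fold change -0.04, from -1.14 to 1.51), where 42.2% of all genes tested were called higher and 25.9% lower. Among the 11 without it, 7 were called higher and 1 lower (median 0.43, from -0.66 to 0.83). In OSM-ESCs the counts were again 3 higher and 4 lower with the motif, and 7 higher and 1 lower without it, where 42.9% of all genes were called higher and 25.4% lower. Rescaled, each comparison had 2 higher and 6 lower with the motif and 6 higher and 3 lower without it, where 33.9% of all genes were called higher and 33.5% (LIF-ESCs) and 33.4% (OSM-ESCs) lower. The mitotic windows below are cut in the same way, with CHR motifs in capitals.
Kif11 (chr19:37376232-37376401, plus strand): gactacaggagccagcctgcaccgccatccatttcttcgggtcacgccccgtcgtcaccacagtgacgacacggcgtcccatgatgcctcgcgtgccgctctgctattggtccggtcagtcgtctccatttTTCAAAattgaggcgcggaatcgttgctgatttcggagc
Ttk (chr9:83834539-83834708, plus strand): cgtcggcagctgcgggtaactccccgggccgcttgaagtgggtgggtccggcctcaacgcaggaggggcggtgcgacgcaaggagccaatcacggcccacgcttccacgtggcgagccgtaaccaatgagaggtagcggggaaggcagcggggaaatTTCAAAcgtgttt
Ccnb2 (chr9:70421535-70421704, minus strand): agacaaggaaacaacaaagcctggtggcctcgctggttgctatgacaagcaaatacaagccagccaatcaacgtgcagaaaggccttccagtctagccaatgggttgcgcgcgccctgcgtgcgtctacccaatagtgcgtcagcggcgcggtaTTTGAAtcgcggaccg
Top2a (chr11:99024170-99024339, minus strand): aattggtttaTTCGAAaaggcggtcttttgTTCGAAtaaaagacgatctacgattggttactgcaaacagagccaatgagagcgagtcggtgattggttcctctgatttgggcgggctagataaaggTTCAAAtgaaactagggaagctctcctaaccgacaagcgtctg

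Kif11 and Ttk rose with either cytokine, and Ccnb2 and Top2a fell. After rescaling Ttk was not called with OSM. Of the 13 mitotic members with a CHR motif, 3 rose and 9 fell in LIF-ESCs (median -0.24, from -0.76 to 1.27), where 42.2% and 25.9% of all genes did, and 2 rose and 9 fell in OSM-ESCs (median -0.38), where 42.9% and 25.4% did. Of the 6 without it, 3 rose and 0 fell in LIF-ESCs (median 0.17, from -0.07 to 1.80), and 2 rose and 0 fell in OSM-ESCs. Rescaled, 2 rose and 10 fell with the motif and 2 rose and 2 fell without it in LIF-ESCs, and in OSM-ESCs 1 rose and 11 fell with it and 2 rose and 4 fell without it. After rescaling, 33.9% of all genes were called higher in each comparison, and 33.5% (LIF-ESCs) and 33.4% (OSM-ESCs) lower. These are descriptions of the letters in the windows and were not tested.

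Members were among the more highly expressed genes in every group. Their mean TPM in -LIF-ESCs lay between the 60th percentile of the genes tested (Pole) and the 98.3rd (Cdc20), and in LIF-ESCs between the 55.6th (Rfc3) and the 98.8th (Mybl2). The S-phase members summed to 2519 to 2524 TPM in -LIF-ESCs, 2535 to 2549 with LIF and 2437 to 2513 with OSM. For the mitotic members the sums were 2933 to 2988, 3150 to 3184 and 2888 to 2974 TPM. Mybl2 alone added 154 and 156 TPM in -LIF-ESCs but 543 and 545 in LIF-ESCs, a larger rise than that of the mitotic sum. Single members thus moved more than the sums did. Of the 25 mitotic members, 10 had a log2 fold change above 0 with LIF and 15 below, so the higher sum does not describe most of them.

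**Figure D1:**
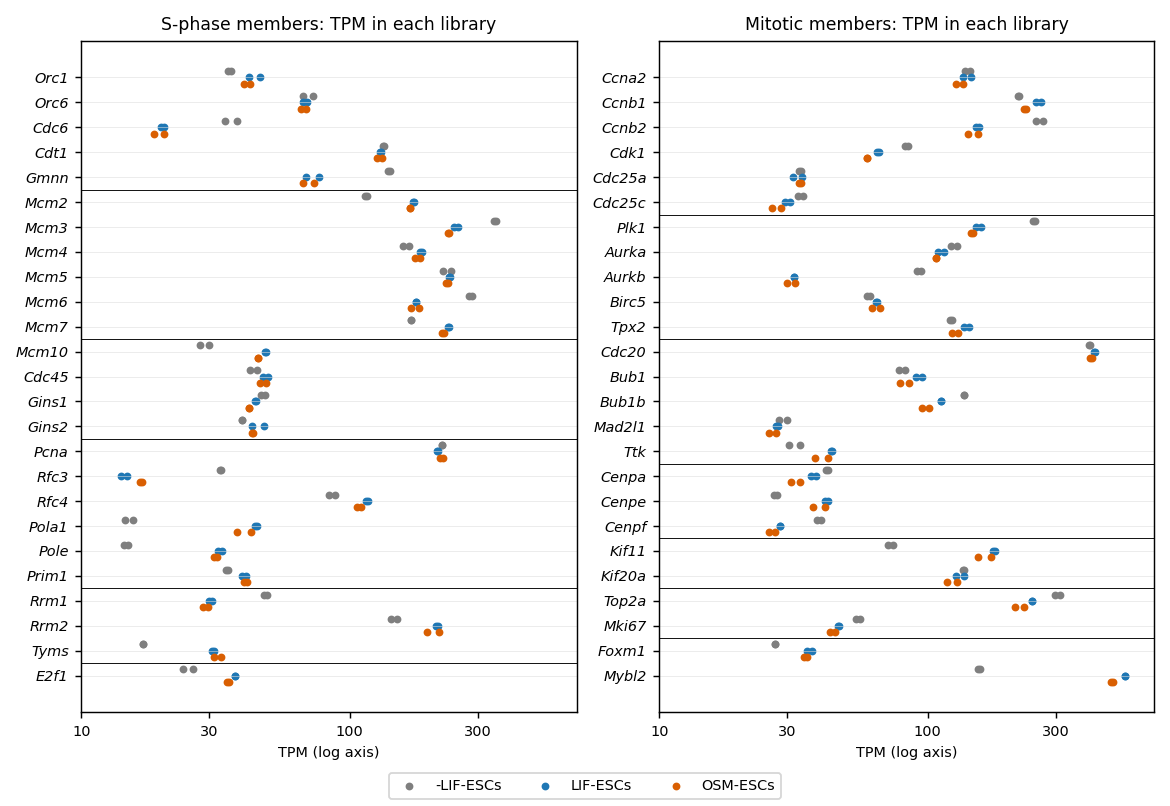
TPM (log axis) of each S-phase and mitotic member in each of the 6 libraries, with 1 point a library, colours for -LIF-ESCs, LIF-ESCs and OSM-ESCs, and lines between roles. The libraries of LIF-ESCs and OSM-ESCs lie close together for most members, and those of -LIF-ESCs stand apart to the left for Pola1, Pole, Kif11 and Mybl2 and to the right for Gmnn, Rfc3 and Aurkb.

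S-phase members changed in both directions against -LIF-ESCs, and proteins of the same complex did so as well. In LIF-ESCs, 13 of the 25 were called higher and 6 lower, where 42.2% and 25.9% of all genes tested were, with a median log2 fold change of 0.18. With a fold change of at least 2 as well, 2 were higher (Pola1 and Pole) and 1 lower (Rfc3), where 13.3% and 8.09% of all genes were. In OSM-ESCs, 12 were called higher and 7 lower, where 42.9% and 25.4% of all genes were, with a median of 0.13, and 2 (Pola1 and Pole again) were higher and 0 lower with at least 2-fold, where 14.2% and 7.86% were. The counts called were near those that the percentages of all genes would give.

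Rescaling moved the balance between higher and lower calls. After it, 9 S-phase members were called higher and 11 lower with LIF, where 33.9% and 33.5% of all genes were, and 9 higher and 11 lower in OSM-ESCs, where 33.9% and 33.4% were. With at least 2-fold as well, 1 was higher (Pola1) and 2 were lower (Gmnn and Rfc3, with Cdc6 just short of 2-fold) with LIF, where 10.4% and 10.5% of all genes were, and 1 was higher (Pola1) and 3 lower (Cdc6, Gmnn and Rfc3) with OSM, where 11% and 10.4% were. The 9 higher with either scale and with voom on recovered reads were Mcm2, Mcm7, Mcm10, Rfc4, Pola1, Pole, Rrm2, Tyms and E2f1, in LIF-ESCs and likewise in OSM-ESCs. The 6 lower under all 3 in LIF-ESCs were Cdc6, Gmnn, Mcm3, Mcm6, Rfc3 and Rrm1, and OSM-ESCs had these and Gins1. The share of all genes called under all 3 was not counted. Both comparisons use the same -LIF-ESCs libraries, so they are not independent.

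**Figure D2:**
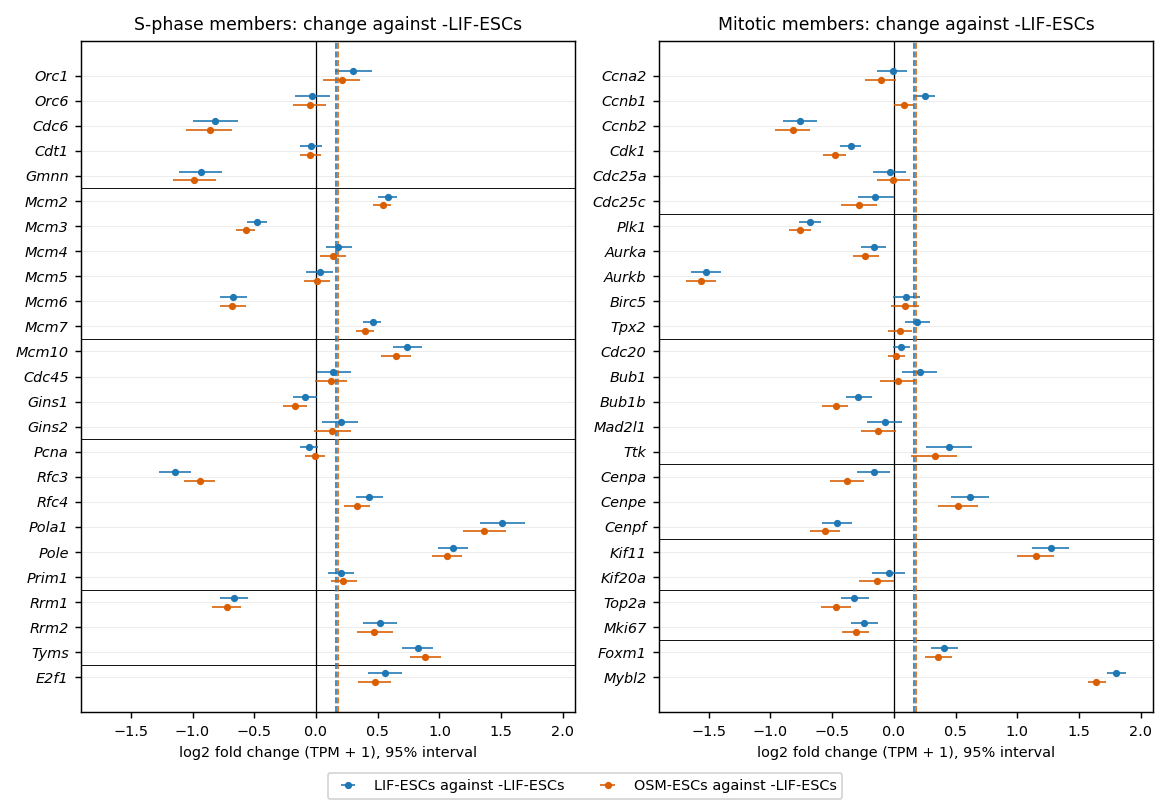
Log2 fold change against -LIF-ESCs of each member, for LIF-ESCs and for OSM-ESCs, with 95% confidence intervals from limma. The solid line is 0, the dashed lines are the medians of all genes tested (0.165 and 0.182), and the lines between members separate roles, within several of which members lie on both sides of 0.

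Among the origin licensing proteins, Gmnn (geminin, which binds Cdt1 and blocks a second round of licensing) and Cdc6 (which recruits the helicase ring) were lower with LIF or OSM, and Orc1 (the largest origin recognition subunit) was higher only before rescaling. Gmnn stood at 139 and 141 TPM in -LIF-ESCs, 68.9 and 77.03 TPM with LIF and 73.4 and 67.1 TPM with OSM. Its -LIF-ESCs libraries lay apart from the others, with a log2 fold change of -0.93 ± 0.07 (SE) with LIF (limma, adjusted p = 0.000168) and -0.99 ± 0.07 with OSM (adjusted p = 0.000137). Rescaled, these were -1.12 and -1.18. Cdc6 had -0.82 ± 0.07 and -0.86 ± 0.07 (-1.0 and -1.05 rescaled). Orc1 stood at 36.0 and 35.1 TPM in -LIF-ESCs, 42.0 and 46.2 TPM with LIF and 40.3 and 42.4 TPM with OSM. Both -LIF-ESCs libraries lay below the other 4 libraries, and its log2 fold change of 0.30 ± 0.06 with LIF (adjusted p = 0.00674) and 0.21 ± 0.06 with OSM (adjusted p = 0.0249) became 0.12 and 0.02 after rescaling, no longer called. The call in OSM-ESCs was also lost without -LIF-ESCs replicate 1 (0.228), without -LIF-ESCs replicate 2 (0.192) or without OSM-ESCs replicate 2 (0.175). Cdt1, the loader that geminin inhibits, and Orc6, the smallest origin recognition subunit, had -0.04 and -0.03 with LIF and -0.05 and -0.05 with OSM. Neither was called, and rescaled both were called lower, at -0.22 to -0.25.

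The 6 subunits of the MCM ring, which assemble in equal numbers in the protein, did not change together. Mcm2 and Mcm7 were higher with LIF or OSM, Mcm3 and Mcm6 were lower, and Mcm4 and Mcm5 lay between. Mcm2 stood at 116 and 114 TPM in -LIF-ESCs, 172 and 173 TPM with LIF and 167 and 168 TPM with OSM. Its groups did not overlap, with a log2 fold change of 0.58 ± 0.03 with LIF (limma, adjusted p = 4.75e-05) and 0.54 ± 0.03 with OSM (adjusted p = 5.89e-05), or 0.39 and 0.34 rescaled. Mcm6 stood at 277 and 285 TPM, 176 and 176 TPM, and 181 and 169.6 TPM in the same order. It fell by 0.67 ± 0.04 on the log2 scale with LIF (adjusted p = 9.08e-05) and by 0.68 ± 0.04 with OSM (adjusted p = 8.49e-05), or by 0.86 and 0.87 rescaled. Mcm7 had 0.46 ± 0.03 and 0.40 ± 0.03 (0.27 and 0.20 rescaled), and Mcm3 -0.48 ± 0.03 and -0.57 ± 0.03 (-0.67 and -0.77 rescaled). Mcm4 was called higher at 0.18 and 0.14, values of -0.004 and -0.06 after rescaling that were not called, and in OSM-ESCs the call was also lost without -LIF-ESCs replicate 1 (0.101), without LIF-ESCs replicate 1 or 2 (0.138 each) or without OSM-ESCs replicate 1 (0.106). In LIF-ESCs it was lost without -LIF-ESCs replicate 1 (0.147) or LIF-ESCs replicate 2 (0.175). Mcm5 had 0.03 and 0.01 and was not called, and rescaled was called lower at -0.16 and -0.19.

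Shares within the ring do not depend on how a library is scaled. The 6 subunits summed to a mean of 1305 TPM in -LIF-ESCs, 1249 with LIF and 1210 with OSM. Mcm3 and Mcm6 were the most abundant in -LIF-ESCs, with mean shares of 26.6% and 21.5%, and fell to 19.9% and 14.1% with LIF and 19.4% and 14.5% with OSM. Mcm2, the least abundant in -LIF-ESCs, went from 8.8% to 13.8% and 13.9%, and Mcm7 from 13.0% to 18.6% and 18.5%. Mcm4 went from 12.4% to 14.7% and 14.7%, and Mcm5 from 17.6% to 18.8% and 19.1%. In each of the 6 cases the -LIF-ESCs libraries lay outside the range of the other 4 libraries. The shares add up to the whole ring, so a change in any subunit moves the others and the 6 cases are not separate results. The TPM of Mcm5 itself overlapped between -LIF-ESCs and each cytokine group. How often libraries lay apart over all genes was not counted. The range of mean shares over the ring was 8.8% to 26.6% in -LIF-ESCs and 13.8% to 19.9% in LIF-ESCs.

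**Figure D3:**
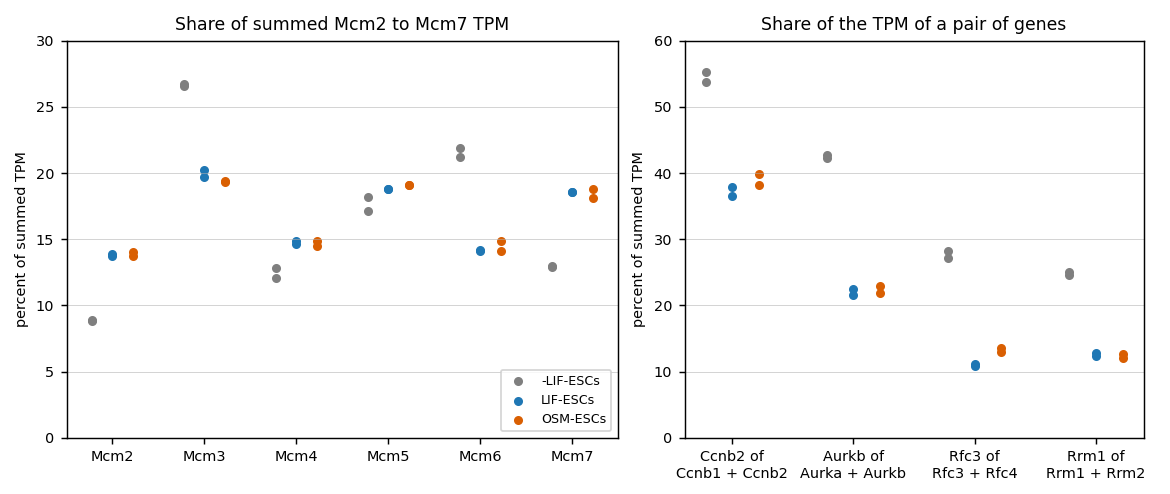
Left, each Mcm subunit's percent of the summed TPM of Mcm2 to Mcm7 in each library. Right, the percent taken by Ccnb2, Aurkb, Rfc3 and Rrm1 of the summed TPM of the named pair of genes, with 1 point a library. The -LIF-ESCs points lie above the others for Mcm3, Mcm6 and the 4 genes on the right and below them for Mcm2 and Mcm7.

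Of the helicase activation factors, Mcm10, which joins the ring at initiation, was higher with LIF or OSM. Mcm10 stood at 27.8 and 29.8 TPM in -LIF-ESCs, 48.8 and 48.4 TPM with LIF and 45.7 and 45.5 TPM with OSM. The log2 fold change was 0.74 ± 0.05 (limma, adjusted p = 9.7e-05) and 0.65 ± 0.05 (adjusted p = 0.00015), or 0.55 and 0.45 rescaled, with no overlap between the groups. Gins1, a GINS subunit, stood at 48.3 and 46.6 TPM in -LIF-ESCs, 44.6 and 44.5 TPM with LIF and 42.1 and 42.1 TPM with OSM. These are small steps, -0.09 ± 0.04 with LIF (adjusted p = 0.0905, not called) and -0.17 ± 0.04 with OSM (adjusted p = 0.012, called lower). Without -LIF-ESCs replicate 1 the second was -0.141 and not called, and rescaled both were called lower, at -0.27 and -0.36. Cdc45, the helicase's partner, had 0.14 ± 0.05 and 0.12 ± 0.05 (-0.04 and -0.08 rescaled) and was not called. Gins2, another GINS subunit, had 0.20 ± 0.06 in LIF-ESCs (called) and 0.13 ± 0.06 in OSM-ESCs (not called), with 0.01 and -0.07 rescaled. Its call was lost in 5 of the 6 fits that left out a library, at 0.122 to 0.201, the exception being the fit without LIF-ESCs replicate 1. In addition, 67.3% of its exon bases overlap Gse1 on the opposite strand, and as the strand setting of the counting was not given, reads of these genes cannot be told apart. Overlaps with other genes, on the opposite strand but for 2 microRNAs in Mcm7, covered 10.8% to 12.7% of the exon bases of Orc1, Mcm7, Rfc4, Ccna2 and Cdc25c.

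The widest spread among S-phase members was in the polymerases and their clamp. Pola1 (chrX:93304767-93632155 on GRCm38, as are the gene positions below), the catalytic subunit of polymerase alpha that starts new strands with the primase Prim1, stood at 14.5 and 15.6 TPM in -LIF-ESCs, 44.96 and 44.3 TPM with LIF and 42.8 and 38.0 TPM with OSM. The rise was 2.84-fold with LIF (log2 fold change 1.51 ± 0.07, limma, adjusted p = 3.63e-05) and 2.57-fold with OSM (1.36 ± 0.07, adjusted p = 4.69e-05), or 1.33 and 1.17 on the log2 scale after rescaling. Its promoter, printed above, holds 1 E2F motif. Rfc3 (chr5:151642756-151651242), a subunit of the clamp loader, went the other way, at 33.0 and 32.8 TPM in -LIF-ESCs, 14.0 and 14.8 TPM with LIF and 16.5 and 16.8 TPM with OSM. The groups lay apart, with -1.14 ± 0.05 with LIF (adjusted p = 3.18e-05) and -0.94 ± 0.05 with OSM (adjusted p = 5.36e-05), or -1.32 and -1.13 rescaled. Rfc4, another subunit of that loader, had 0.43 ± 0.04 and 0.33 ± 0.04 (0.24 and 0.14 rescaled). Rfc3 therefore made up 27.7% of the summed TPM of this pair in -LIF-ESCs, 11% with LIF and 13.3% with OSM.

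Pole, the catalytic subunit of the leading-strand polymerase epsilon, had 1.11 ± 0.05 in LIF-ESCs and 1.06 ± 0.05 in OSM-ESCs, or 0.93 and 0.87 rescaled. Prim1 had 0.20 ± 0.04 and 0.22 ± 0.04, called before rescaling and not after it (0.02 and 0.03). Pcna, the sliding clamp and a common marker of S phase, stood at 220.4 and 221 TPM in -LIF-ESCs, 211 and 214 TPM with LIF and 223 and 217 TPM with OSM. Its values were close in all 3 groups, with -0.06 ± 0.03 with LIF (limma, adjusted p = 0.167) and -0.01 ± 0.03 with OSM (adjusted p = 0.854). It was called lower at -0.24 and -0.20 after rescaling, and with voom at the same values. Pcna has 2 annotated pseudogenes, Tyms 1, Ccnb1 1 and Ccnb2 1, so their counts are uncertain where reads were split between copies.

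The subunits of ribonucleotide reductase, the enzyme that makes deoxynucleotides, moved apart. Rrm1, the large subunit, stood at 47.8 and 49.1 TPM in -LIF-ESCs, 30.6 and 29.8 TPM with LIF and 29.6 and 28.3 TPM with OSM. It fell by 0.66 ± 0.05 on the log2 scale with LIF (limma, adjusted p = 0.00012) and by 0.72 ± 0.05 with OSM (adjusted p = 8.72e-05), or by 0.85 and 0.92 rescaled. Rrm2, the small subunit whose level is cell cycle controlled, stood at 143 and 151 TPM in -LIF-ESCs, 209 and 213 TPM with LIF and 214 and 194 TPM with OSM. It was higher by 0.52 ± 0.06 (adjusted p = 0.000665) and 0.47 ± 0.06 (adjusted p = 0.000945), or 0.33 and 0.28 rescaled. Rrm1 made up 24.8% of the summed TPM of this pair in -LIF-ESCs, 12.5% with LIF and 12.4% with OSM. Tyms, thymidylate synthase, stood at 17.0 and 17.0 TPM in -LIF-ESCs, 31.1 and 30.8 TPM with LIF and 33.2 and 31.2 TPM with OSM, with 0.83 ± 0.05 (adjusted p = 7.44e-05) and 0.88 ± 0.05 (adjusted p = 5.89e-05), or 0.65 and 0.69 rescaled. E2f1, a transcription factor of the E2F family, stood at 26.1 and 23.9 TPM in -LIF-ESCs, 37.5 and 37.3 TPM with LIF and 35.6 and 34.8 TPM with OSM. The groups did not overlap, with 0.56 ± 0.05 (adjusted p = 0.000424) and 0.48 ± 0.05 (adjusted p = 0.000778), or 0.38 and 0.28 rescaled.

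The mitotic members also divided, with more called lower than higher against -LIF-ESCs. In LIF-ESCs, 8 of the 25 were called higher and 10 lower, where 42.2% and 25.9% of all genes tested were, with a median of -0.04. In OSM-ESCs, 5 were called higher and 11 lower, where 42.9% and 25.4% of all genes were, with a median of -0.13. In each comparison, 2 were at least 2-fold higher (Kif11 and Mybl2) and 1 at least 2-fold lower (Aurkb), where 13.3% and 8.09% of all genes were with LIF and 14.2% and 7.86% with OSM. Rescaled, these counts stayed at 2 and 1 with LIF, where 10.4% and 10.5% of all genes were at least 2-fold higher and lower. They became 1 higher (Mybl2) and 2 lower (Aurkb and Ccnb2) with OSM, where 11% and 10.4% were. Rescaled, 5 rose and 16 fell in LIF-ESCs (median -0.23) and 4 rose and 20 fell in OSM-ESCs (median -0.32), where about 33.9% of all genes were called higher in each comparison and 33.5% and 33.4% lower.

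Under both scales and voom, Ttk, Cenpe, Kif11, Foxm1 and Mybl2 were called higher in LIF-ESCs and the last 4 of them in OSM-ESCs. Under all 3, the 10 called lower in LIF-ESCs were Ccnb2, Cdk1, Plk1, Aurka, Aurkb, Bub1b, Cenpa, Cenpf, Top2a and Mki67, and OSM-ESCs had these and Cdc25c. The proliferation markers Top2a and Mki67 were thus among the members lower in the cytokine groups. As for the S-phase members, the share of all genes called under all 3 was not counted.

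Cdk1, the kinase that drives entry into mitosis, was lower with LIF or OSM, and its cyclin partners differed. Cdk1 stood at 84.7 and 82.7 TPM in -LIF-ESCs, 64.8 and 65.8 TPM with LIF and 59.7 and 59.7 TPM with OSM. It fell by 0.35 ± 0.03 on the log2 scale with LIF (limma, adjusted p = 0.000454) and by 0.48 ± 0.03 with OSM (adjusted p = 0.000143), or by 0.54 and 0.68 rescaled. Ccnb2, cyclin B2, stood at 253 and 269.7 TPM in -LIF-ESCs, 155 and 152 TPM with LIF and 154 and 141 TPM with OSM, with no overlap between -LIF-ESCs and the others. Its log2 fold change was -0.76 ± 0.05 (adjusted p = 0.00014) and -0.82 ± 0.05 (adjusted p = 0.000107), or -0.95 and -1.02 rescaled.

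Ccnb1, cyclin B1, stood at 218 and 219 TPM in -LIF-ESCs, 254 and 264 TPM with LIF and 233 and 229 TPM with OSM. It was called higher in LIF-ESCs (0.25 ± 0.03, limma, adjusted p = 0.00141) and not in OSM-ESCs (0.08 ± 0.03, adjusted p = 0.076), and rescaled it had 0.06 (not called) and -0.12 (called lower). Ccnb2 made up 54.5% of the summed TPM of these cyclins in -LIF-ESCs, 37.2% with LIF and 39.0% with OSM. Ccna2, cyclin A2, had -0.01 and -0.10, Cdc25a, a phosphatase that activates Cdks, -0.03 and -0.01, and Cdc25c, which activates Cdk1 at mitotic entry, -0.15 and -0.28. Of these, Cdc25c alone was called, lower in OSM-ESCs. After rescaling all 3 were called lower, at -0.20 to -0.48, in both comparisons.

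Aurkb (chr11:69045647-69051664), the kinase of the chromosomal passenger complex that corrects kinetochore attachment, was the member with the lowest log2 fold change. It stood at 91.5 and 94.4 TPM in -LIF-ESCs, 31.7 and 31.8 TPM with LIF and 32.0 and 29.9 TPM with OSM. The groups with a cytokine lay far below -LIF-ESCs, with a log2 fold change of -1.52 ± 0.05 (limma, adjusted p = 1.14e-05) and -1.56 ± 0.05 (adjusted p = 1.02e-05), or -1.71 and -1.75 rescaled. Birc5 (survivin), a partner of Aurkb in that complex, had 0.10 ± 0.05 and 0.09 ± 0.05 and was not called, and rescaled it had -0.09 (not called) and -0.10 (called lower). Aurka, the spindle pole kinase, had -0.16 ± 0.04 and -0.23 ± 0.04 (-0.35 and -0.42 rescaled), all called, and the call at -0.16 was lost without -LIF-ESCs replicate 2 (-0.126) or LIF-ESCs replicate 1 (-0.129). Aurkb thus took 42.5% of the summed TPM of the Aurora pair in -LIF-ESCs, 22% with LIF and 22.4% with OSM. Tpx2, which activates Aurka on the spindle, stood at 121 and 123 TPM in -LIF-ESCs, 136 and 142 TPM with LIF and 129 and 124 TPM with OSM, with 0.19 ± 0.04 (adjusted p = 0.00916) and 0.05 ± 0.04 (adjusted p = 0.303). Rescaled these were 0.00 (not called) and -0.15 (called lower), and without LIF-ESCs replicate 2 the first was 0.158 and not called. Plk1, the Polo kinase of mitotic entry and exit, had -0.68 ± 0.04 and -0.76 ± 0.04 (-0.87 and -0.96 rescaled).

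Among the spindle checkpoint proteins, Bub1b (BubR1, which inhibits the anaphase-promoting complex) was lower with LIF or OSM, and Ttk (the kinase Mps1 that starts checkpoint signalling) was higher. Bub1b stood at 137 and 137 TPM in -LIF-ESCs, 112 and 112 TPM with LIF and 102 and 95.1 TPM with OSM. The 3 groups did not overlap, with -0.29 ± 0.04 with LIF (limma, adjusted p = 0.00195) and -0.47 ± 0.04 with OSM (adjusted p = 0.000286), or -0.47 and -0.67 rescaled. Ttk stood at 30.4 and 33.4 TPM in -LIF-ESCs, 43.6 and 43.9 TPM with LIF and 42.6 and 38.0 TPM with OSM. It had 0.45 ± 0.07 (adjusted p = 0.00318) and 0.33 ± 0.07 (adjusted p = 0.0103), and in OSM-ESCs the call was lost after rescaling (0.13) or without -LIF-ESCs replicate 1 (0.263). Bub1, a kinetochore kinase, was called higher in LIF-ESCs (0.21 ± 0.05) and not in OSM-ESCs (0.03 ± 0.05), and rescaled it had 0.02 (not called) and -0.17 (called lower). The call in LIF-ESCs was lost without -LIF-ESCs replicate 1 (0.167) or LIF-ESCs replicate 2 (0.177). Mad2l1 (Mad2) had -0.07 and -0.13, and Cdc20, the activator of the anaphase-promoting complex that the checkpoint holds, 0.06 and 0.02. Neither was called, and rescaled both were called lower, at -0.13 to -0.32.

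The centromere proteins split as well. Cenpe, the kinetochore motor that aligns chromosomes, stood at 26.7 and 27.5 TPM in -LIF-ESCs, 42.6 and 41.4 TPM with LIF and 41.6 and 37.3 TPM with OSM, with 0.62 ± 0.06 (limma, adjusted p = 0.000523) and 0.52 ± 0.06 (adjusted p = 0.000957). Cenpf, a large outer kinetochore protein, stood at 38.6 and 40.0 TPM, 28.1 and 28.2 TPM, and 26.9 and 25.5 TPM in the same order. It had -0.46 ± 0.05 (adjusted p = 0.000528) and -0.56 ± 0.05 (adjusted p = 0.000252). Cenpa, the histone H3 variant that marks centromeres, stood at 42.0 and 42.6 TPM, 36.8 and 38.5 TPM, and 31.0 and 33.6 TPM. The groups lay in this order without overlap, with -0.16 ± 0.05 with LIF (adjusted p = 0.0419) and -0.38 ± 0.05 with OSM (adjusted p = 0.00194). The first call was lost without either -LIF-ESCs library (-0.175 and -0.154) or either LIF-ESCs library (-0.132 and -0.197), and when genes were not filtered. Rescaled, Cenpe had 0.43 and 0.33, Cenpf -0.65 and -0.76 and Cenpa -0.35 and -0.57, all called.

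Of the spindle motors, Kif11 (chr19:37376403-37421859), the kinesin Eg5 that pushes spindle poles apart, stood at 71.2 and 74.5 TPM in -LIF-ESCs, 175 and 178 TPM with LIF and 172 and 154 TPM with OSM. The rise was 2.41-fold with LIF (1.27 ± 0.06, limma, adjusted p = 3.69e-05) and 2.22-fold with OSM (1.15 ± 0.06, adjusted p = 4.71e-05), or 1.08 and 0.96 on the log2 scale rescaled. Kif20a, a kinesin of the central spindle and cytokinesis, stood at 135 and 137 TPM, 128 and 136 TPM, and 129 and 118 TPM. Its values in LIF-ESCs overlapped those in -LIF-ESCs, with -0.04 ± 0.05 (adjusted p = 0.504) and -0.14 ± 0.05 (adjusted p = 0.0682), neither called. In OSM-ESCs it was called lower without OSM-ESCs replicate 1 (-0.200). Rescaled both were called lower, at -0.23 and -0.34, and 29.3% of its exon bases overlap Cdc23 on the opposite strand.

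Top2a, the topoisomerase that untangles sister chromatids, stood at 298 and 311 TPM in -LIF-ESCs, 245 and 244 TPM with LIF and 228 and 211 TPM with OSM. It fell by 0.32 ± 0.05 on the log2 scale with LIF (limma, adjusted p = 0.00226) and by 0.47 ± 0.05 with OSM (adjusted p = 0.000481). Mki67, the proliferation antigen that coats mitotic chromosomes, stood at 54.2 and 56.2 TPM, 46.9 and 46.5 TPM, and 45.3 and 43.2 TPM. It fell by 0.24 ± 0.04 (adjusted p = 0.00505) and by 0.31 ± 0.04 (adjusted p = 0.0017), and neither gene overlapped between -LIF-ESCs and the other groups. Rescaled, Top2a had -0.50 and -0.67 and Mki67 -0.42 and -0.51.

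The transcription factors of the mitotic genes were higher in the cytokine groups while most of the mitotic calls above were lower. Mybl2 (chr2:163054687-163084688), which encodes B-Myb, had the highest log2 fold change of the 50 members and stood at 156 and 154 TPM in -LIF-ESCs, 545 and 543 TPM with LIF and 481 and 493 TPM with OSM. The rise was 3.49-fold with LIF (1.80 ± 0.03, limma, adjusted p = 2.51e-06) and 3.13-fold with OSM (1.64 ± 0.03, adjusted p = 2.8e-06), or 1.62 and 1.45 on the log2 scale rescaled. Foxm1 stood at 27.0 and 27.1 TPM, 37.1 and 35.6 TPM, and 34.5 and 35.5 TPM. It had 0.41 ± 0.04 (adjusted p = 0.000612) and 0.36 ± 0.04 (adjusted p = 0.00102), or 0.23 and 0.17 rescaled, with no overlap with -LIF-ESCs in either factor.

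Between OSM-ESCs and LIF-ESCs the members differed little. None of the 50 was called by limma, where 0.463% of all genes tested were called higher and 0.129% lower. An unadjusted limma p under 0.05 was found for 2 of the 25 S-phase members and 8 of the 25 mitotic members, and for 15.3% of all genes. Every 95% confidence interval lay within -0.35 and 0.32 on the log2 scale, so each interval leaves out a 2-fold difference. Of the S-phase members 21 had a lower and 4 a higher value in OSM-ESCs (median -0.05), and of the mitotic members 24 had a lower and 1 a higher value (median -0.10), where the median of all genes was 0.01. Without OSM-ESCs replicate 2, 14 S-phase and 21 mitotic members had a lower value, with medians of -0.015 and -0.062. With voom on the recovered reads, a test that takes account of depth, 1 S-phase member (Pola1) and 9 mitotic members (Ccnb1, Cdk1, Tpx2, Bub1, Bub1b, Cenpa, Kif11, Top2a and Mybl2) were called lower and 0 higher, where 3.18% of all genes were called lower and 4.93% higher. Fibroblast markers were higher in OSM-ESCs for all 14 genes, 4 of which were called, and with voom 12 were called higher and 8 of the 10 ESC markers lower. Their part in these differences was not tested.

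**Figure D4:**
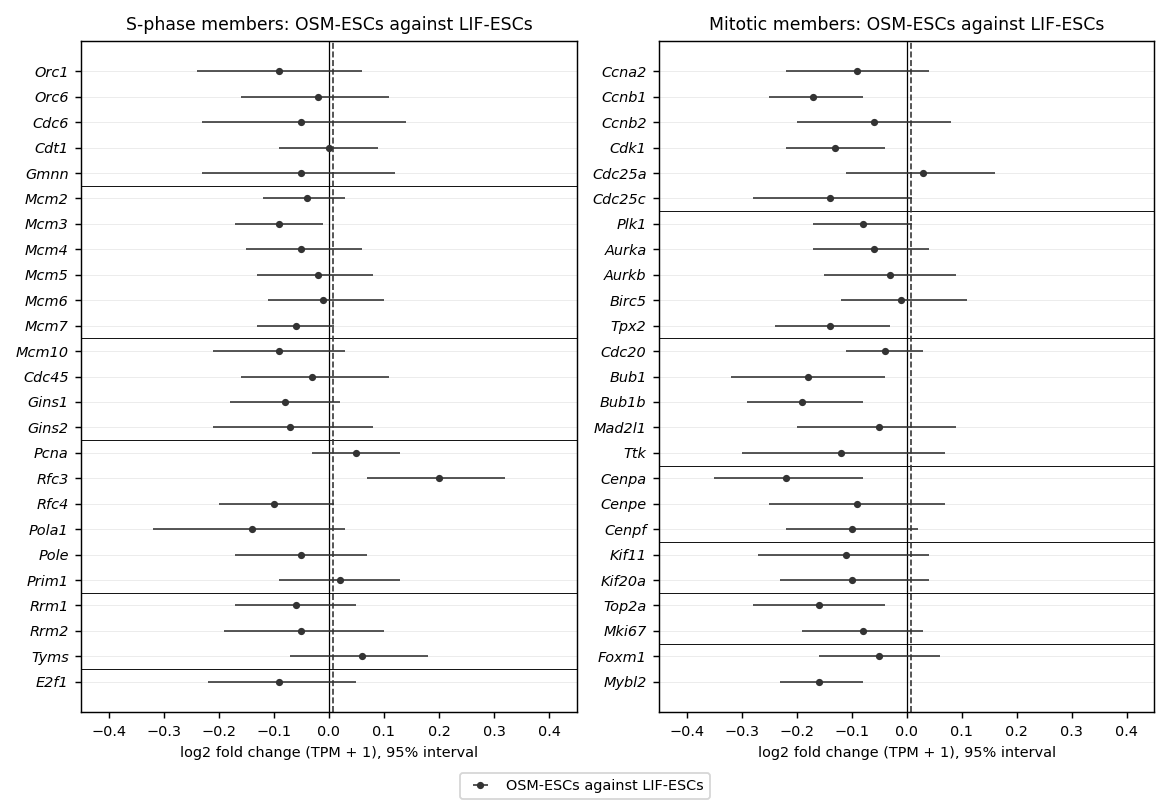
Log2 fold change of each member in OSM-ESCs against LIF-ESCs with its 95% confidence interval from limma. The solid line is 0 and the dashed line the median of all genes tested, and most points lie slightly to the left of both, with Rfc3 the farthest to the right.

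The members farthest apart between these groups were Rfc3, Pola1 and Rfc4 among the S-phase genes and Cenpa, Bub1b and Bub1 among the mitotic ones. Rfc3, whose values are given above, was higher in OSM-ESCs by 0.20 ± 0.05 (interval 0.07 to 0.32, limma, adjusted p = 0.186). Pola1 had -0.14 ± 0.07 (interval -0.32 to 0.03, adjusted p = 0.42). Rfc4 stood at 115 and 117 TPM with LIF and 110.2 and 107 TPM with OSM, with -0.10 ± 0.04 (interval -0.20 to 0.01, adjusted p = 0.363). These 3 genes were chosen as the S-phase members farthest apart, and their libraries did not overlap between the groups. How often this held over all genes was not counted. Limma called none of the 3, while voom called Pola1. Cenpa had -0.22 ± 0.05 (interval -0.35 to -0.08, adjusted p = 0.179) and Bub1b -0.19 ± 0.04 (interval -0.29 to -0.08, adjusted p = 0.144). Bub1 stood at 90.8 and 95.02 TPM with LIF and 85.0 and 79.1 TPM with OSM, with -0.18 ± 0.05 (interval -0.32 to -0.04, adjusted p = 0.233). For Pcna the interval was -0.03 to 0.13, and for Mki67 -0.19 to 0.03.

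Other genes of the same processes were called in shares that can be read against the 42.2% higher and 25.9% lower of all genes with LIF and the 42.9% and 25.4% with OSM. After rescaling, the shares of all genes were 33.9% higher and 33.5% lower with LIF and 33.9% and 33.4% with OSM. Of 47 other replication genes, 22 rose and 14 fell in LIF-ESCs (median 0.18) and 19 rose and 14 fell in OSM-ESCs (median 0.05), or 13 and 20, and 12 and 23, after rescaling. Dbf4, the activator of the Cdc7 kinase at origins, rose from a mean of 36.8 TPM in -LIF-ESCs to 99.5 with LIF and 93.4 with OSM, and Ticrr, which helps load Cdc45, from 12.2 to 30.1 and 29.6. Pold2, a small subunit of polymerase delta, fell from 273 TPM to 96.5 and 92.6, and Dctd, which feeds thymidylate synthesis, from 34.9 to 16.7 and 17.6.

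Of 72 other mitosis genes, 34 rose and 19 fell in LIF-ESCs (median 0.03) and 32 rose and 29 fell in OSM-ESCs (median -0.04), or 28 and 35, and 18 and 38, after rescaling. Kif15, a spindle kinesin that can share the work of Kif11, went from 9.26 TPM to 24.7 and 21.7, and Kntc1, a kinetochore protein, from 22.4 to 54.9 and 51.2. Pttg1 (securin, the inhibitor of separase) went from 108 TPM to 30.5 and 25.2, and Pimreg from 67.1 to 13.2 and 12.6. Of the 17 genes of the E2F and Rb families and the DREAM complex, 8 were called higher and 4 lower in each of LIF-ESCs and OSM-ESCs (medians 0.33 and 0.32), or 7 and 5, and 6 and 5, after rescaling. Lin52, a core subunit of DREAM, went from 6.39 TPM to 14.2 and 13.4 and the repressor E2f8 from 14.2 to 28.5 and 29.0. E2f5 went from 54.0 TPM to 38.8 and 37.0, and the repressor E2f7 from 11.02 to 8.46 and 8.52. All of these named genes of the 3 lists were called in both comparisons. Between OSM-ESCs and LIF-ESCs limma called 0 genes of these 3 lists, with 5, 23 and 2 genes at an unadjusted p under 0.05, and voom called 3, 14 and 2 of them lower and 0 higher. Of all genes, 15.3% had such a limma p, and voom called 3.18% lower and 4.93% higher.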

How the data were processed

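The data were RNA-seq libraries of mESCs taken at P10, 6 in all, with 2 for each of the 3 groups. Per the labels and methods, the authors trimmed reads with Trimmomatic, used Hisat2 to align them to mm10 and featureCounts to assign them to genes, and the deposited values are TPM. The annotation, the strand setting, the versions of these 3 tools and the step from counts to TPM are not given in the sources used here, and the authors' DESeq2 test was not repeated. TPM sums to the same total in each library, so genes that rise lower the values of others.

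The members and all gene lists were chosen with earlier results of these data known. In 18556 genes 2 or more libraries reached 1 TPM, and log2(TPM + 1) of these was modelled in R 4.3.3 by limma 3.58.1, using its eBayes step with the trend option and all 3 groups in the fit. This left 3 residual degrees of freedom, 5.3 with the prior. Adjustment of p-values followed Benjamini-Hochberg. Intervals are 95% confidence intervals of that fit.

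Values for every library are given for the members with the highest and the lowest log2 fold change (LIF-ESCs against -LIF-ESCs) within each role, all members of roles with 3 or fewer, Pcna, Mki67, Cdk1 and Ccnb1, and the 3 members of each class farthest from 0 between OSM-ESCs and LIF-ESCs. In the replication, mitosis and E2F lists the 2 highest and 2 lowest genes are named. Nanog, Dppa5a, Lox, Dcn, Sparc and Col5a1, of the marker lists, were named after their values were seen. Reads were recovered from TPM with exon lengths of GENCODE M21, in which 28404 symbols (99.4%) were found once, and 95.4% of values came within 0.02 of a whole read. The 45 members with whole reads in all libraries exclude Cdc45, Rfc4, Cdc25c, Kif11 and Kif20a, whose values were rounded to the nearest read for voom. Member positions are from GENCODE M21 and promoters from RefSeq. Results were recomputed with a pseudocount of 0.1, no filter, a filter of 5 TPM, rescaling by the median ratio, only the groups compared, a replicate block, voom on recovered reads and each library left out. Simulated data were used to test the main limma fit and the median-ratio rescaling only. Plots were drawn with matplotlib 3.10.9 and tables made with pandas 2.3.3 in Python 3.11.15.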

Additional observations from a re-analysis of the deposited data

How the results depend on the processing

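With a pseudocount of 0.1, all 50 members kept their direction and their side of the threshold against -LIF-ESCs. The same held without a filter for all but Cenpa in LIF-ESCs, with a filter of 5 TPM for all but Cdc45 in LIF-ESCs (then called), and with only the groups compared for all but Gins2 in LIF-ESCs and Mcm4 in OSM-ESCs.

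Replicate numbers did not pair the samples, with correlations of the deviations of -0.043, -0.023 and 0.027 between groups. A replicate block changed the call of 1 member (Mcm4 in OSM-ESCs, 0.138, no longer called) and left 0 genes called higher and 0 lower between OSM-ESCs and LIF-ESCs, against 86 and 24.

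Over all genes, OSM-ESCs against LIF-ESCs gave 149 higher and 38 lower with a filter of 5 TPM, 0 and 0 with only the groups compared, 52 and 10 with a pseudocount of 0.1, 908 and 587 with voom, and 0 to 1 and 0 to 0 with each library left out. The cause was not tested.

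Rescaling and voom set the middle of all genes near 0. S-phase members called lower then numbered 11 in LIF-ESCs and 11 in OSM-ESCs under each, and the S-phase median was -0.004 (rescaled) and 0.003 (voom) with LIF and -0.066 and -0.062 with OSM. Mitotic members called higher in LIF-ESCs numbered 5 under each and those called lower 16 under each, and in OSM-ESCs 20 (rescaled) and 19 (voom) were called lower. Of all genes, 33.9% were called higher and 33.5% lower with LIF after rescaling, and 33.9% and 33.4% with OSM. Voom called 6540 of 18431 genes higher and 6398 lower with LIF, and 6642 and 6516 with OSM. The mitotic medians were -0.231 and -0.228 with LIF and -0.318 and -0.322 with OSM. Between OSM-ESCs and LIF-ESCs voom called 1 S-phase and 9 mitotic members lower, where 3.18% of all genes were.

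Members that turned from above to below 0 (rescaled, then voom) were, in LIF-ESCs, Birc5 (-0.086, -0.082), Cdc20 (-0.125, -0.121), Cdc45 (-0.040, -0.033), Mcm5 (-0.158, -0.156) and Mcm4 (-0.004, rescaled only). In OSM-ESCs they were Birc5 (-0.105, -0.102), Bub1 (-0.167, -0.163), Ccnb1 (-0.118, -0.113), Cdc20 (-0.176, -0.170), Cdc45 (-0.077, -0.071), Gins2 (-0.066, -0.062), Mcm4 (-0.060, -0.054), Mcm5 (-0.192, -0.191) and Tpx2 (-0.145, -0.142).

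With each library left out in turn, the S-phase median ranged from 0.147 to 0.201 with LIF, 0.101 to 0.163 with OSM and -0.058 to -0.015 between them, and the mitotic median from -0.081 to -0.022, -0.168 to -0.076 and -0.136 to -0.062. Members that crossed 0, none of them called in the fit to all libraries, were Ccna2 (-0.060 to 0.035), Cdc25a (-0.089 to 0.026), Mcm5 (-0.021 to 0.080) and Orc6 (-0.091 to 0.030) in LIF-ESCs, and Bub1 (-0.022 to 0.081), Cdc25a (-0.019 to 0.009), Mcm5 (-0.045 to 0.056), Orc6 (-0.115 to 0.006) and Pcna (-0.028 to 0.014) in OSM-ESCs. Where a library was left out, the lone sample of its group was assumed to vary like the others. The numbers of members called in those fits are left out for this reason. Besides the lost calls given with the genes above, Birc5 in OSM-ESCs was called higher without OSM-ESCs replicate 2 (0.138).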
